A study of Mus musculus with 6 samples.

Results

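The genes described here are 8 genes of the fetal growth programme, Lin28a, Lin28b, Igf2bp1, Igf2bp2, Igf2bp3, Hmga1, Hmga2 and Arid3a. They were taken from a list of symbols matched to Ensembl identifiers, and all 8 were found among the 31053 genes of the count tables and had sense counts. The counts came from lung cells of C57BL6 mouse fetuses at embryonic day 17, which were dissociated with liberase, frozen in DMSO and cultured on thin Matrigel, a basement membrane extract. To the medium, named for haematopoietic stem and progenitor cells and renewed on day 3, thrombopoietin, IL6, SCF, FGF, VEGF and Flt3 ligand had been added. On days 4, 5 and 6 the suspension cells, floating in the medium, and the adherent cells, detached with accutase and sorted for live cells with VE-cadherin on their surface, were put into 10x 3' libraries. Each fraction gave 1 library per day, 3 libraries per fraction and 6 in all. The sort was applied to the adherent cells only, so attachment and sorting cannot be told apart.

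LIN28A and LIN28B are RNA-binding proteins that block the maturation of let-7, a microRNA family that accumulates as tissues leave the fetal stage. Let-7 in turn lowers transcripts that carry matches to its seed, among them those of LIN28 itself, of the IGF2BP family and of HMGA2, so the genes form a loop that is known to be high in fetal and low in adult blood progenitors. The IGF2BP proteins bind and stabilise messenger RNAs of growth genes, the HMGA proteins bend AT-rich DNA, and ARID3A is an AT-rich DNA-binding transcription factor that in mice is linked to fetal B cell output downstream of Lin28b.

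The sequence that links these genes is the let-7 seed, and 4 of the mature microRNAs that carry it are shown because their seed defines the matches counted in the 8 genes. In the RefSeq sequences on GRCm38.p6, 11 mature microRNAs share these 7 letters at bases 2 to 8, which are in capitals.
mmu-let-7a-5p: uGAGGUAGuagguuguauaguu
mmu-let-7d-5p: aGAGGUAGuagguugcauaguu
mmu-let-7g-5p: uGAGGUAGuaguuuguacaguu
mmu-miR-98-5p: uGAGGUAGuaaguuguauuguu

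All 8 genes held at least 1 match to the seed complement CTACCTC, read on the transcript strand, in the longest annotated 3' UTR of GENCODE M21. Hmga2, Lin28b and Igf2bp1 held 4 each, Lin28a and Arid3a 2 each, and Igf2bp2, Igf2bp3 and Hmga1 1 each. Over 20819 genes with an annotated 3' UTR, 9.1% held a match. Long UTRs hold more matches by length alone, so each gene was set beside genes whose 3' UTR was within 20% of its own length. Of those, 15.6% held a match for Hmga2 (3014 bases), 24.2% for Lin28b (4445 bases) and 33.5% for Igf2bp1 (6337 bases), and 0.13%, 0.24% and 0.36% held as many as 4. These sets, of 2240, 1266 and 561 genes, include the gene itself, so each share counts it. For the other 5 genes the share with a match lay between 8.1% for Hmga1 and 15.7% for Arid3a. Several of these genes are grouped because they are known let-7 targets, so the matches describe the group and are not independent of it. The tables count messenger RNA and give no level of let-7 itself.

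1 match of each gene is shown, the first in the UTR that is followed by an A or, for Hmga1, its single match. The 7 letters that pair with the seed are in capitals, and coordinates are on mm10 (GRCm38). They lie in the 3' UTR of Lin28a (chr4:134005189-134005211, minus strand), Lin28b (chr10:45381022-45381044, minus), Igf2bp1 (chr11:95961778-95961800, minus), Igf2bp2 (chr16:22059473-22059495, minus), Igf2bp3 (chr6:49086787-49086809, minus), Hmga1 (chr17:27563277-27563299, plus), Hmga2 (chr10:120364224-120364246, minus) and Arid3a (chr10:79953895-79953917, plus).
Lin28a: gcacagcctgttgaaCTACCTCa
Lin28b: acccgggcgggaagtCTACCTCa
Igf2bp1: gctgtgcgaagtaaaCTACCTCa
Igf2bp2: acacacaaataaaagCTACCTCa
Igf2bp3: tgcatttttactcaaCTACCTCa
Hmga1: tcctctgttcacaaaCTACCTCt
Hmga2: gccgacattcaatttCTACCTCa
Arid3a: aaggcaagtttctttCTACCTCa

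**Figure D1:**
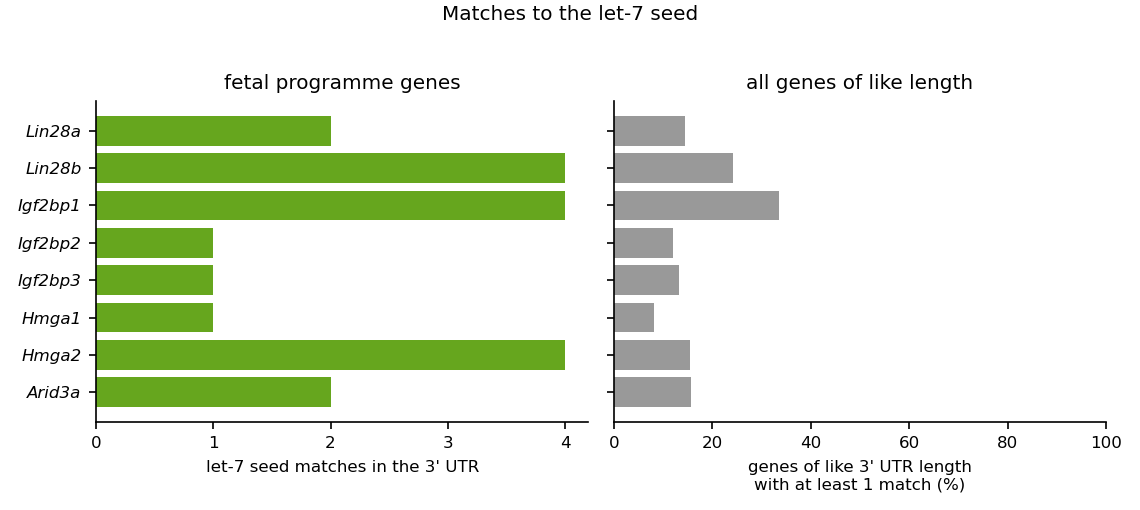
Number of let-7 seed matches in the longest annotated 3' UTR of each gene (left), and the percentage of all genes of like 3' UTR length, within 20%, that hold at least 1 match (right). Hmga2, Lin28b and Igf2bp1 hold 4 matches each, while between 8.1% and 33.5% of genes of like length hold any.

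The genes split between the fractions. Lin28a, Lin28b, Igf2bp3 and Arid3a were higher in suspension, Hmga2, Igf2bp1 and Igf2bp2 were lower, and Hmga1 did not pass the test. A gene was called when its adjusted p (Benjamini-Hochberg over all genes, quasi-likelihood test of edgeR) was under 0.05, and 7 of 8 were. Of all 14912 tested genes 56.8% were called, 27.1% higher and 29.7% lower in suspension, beside 4 and 3 of the 8. All 8 had passed the filter on low counts. Lin28a and Lin28b passed it only through suspension, the fraction where they were high, so their calls and separation are not independent of the filter. In 7 of the 8 no suspension value lay within the range of the adherent values or the reverse, 4 with suspension higher and 3 with it lower. This was so in 67.8% of tested genes, 33.4% higher and 34.4% lower, so calls and separation were common over the whole table. The median log2 ratio of the 8 genes was 0.03 and that of all tested genes -0.00247. In the values that follow, CPM is the count scaled to library size with TMM factors, the ± after a log2 ratio is an approximate standard error, and ratios are suspension over adherent. A library is a sum over all its droplets, so fewer cells that carry a transcript and less of it per cell cannot be told apart. Nothing in the labels tells if each day was a culture of its own, so a p-value here measures only how these libraries spread. The libraries of a fraction are from different days, so in the fraction contrast this spread includes change over days. The rest of it may be technical.

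**Figure D2:**
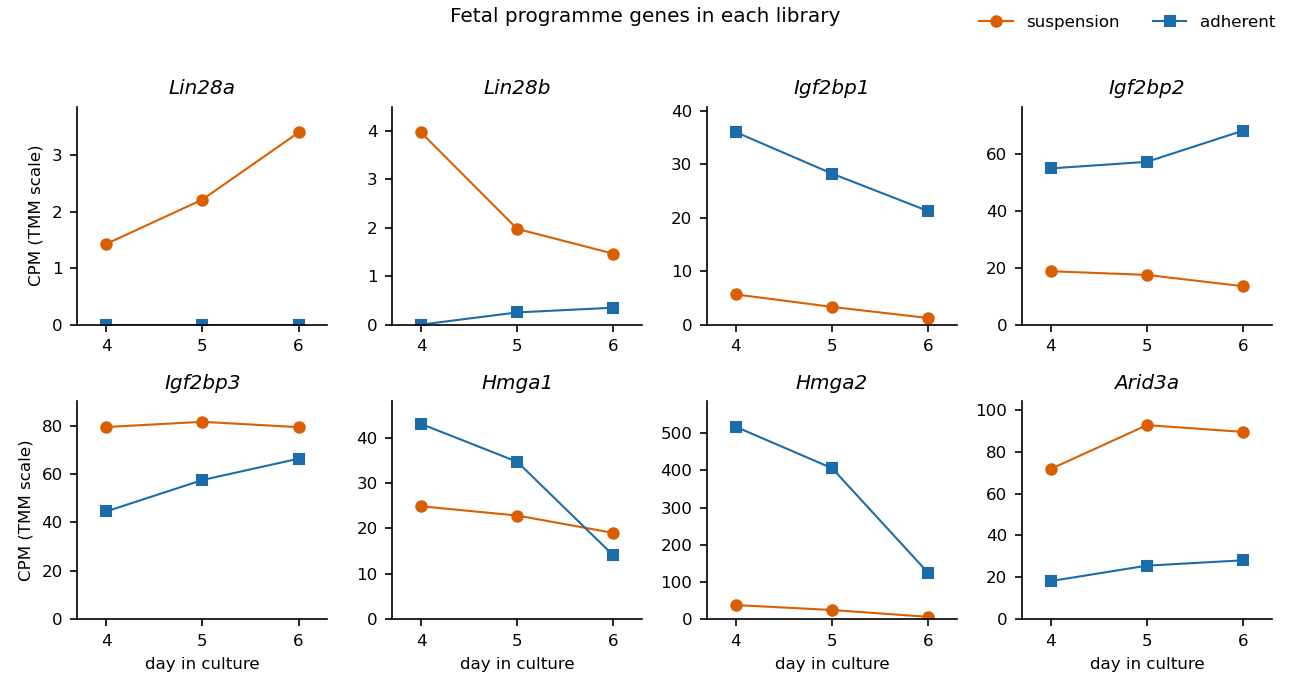
Level of each gene in CPM (TMM scale, linear axes from 0) against day in culture, with 1 point per library, suspension in orange circles and adherent in blue squares. Lin28a has no count in the adherent libraries, and Hmga2 in the adherent libraries runs from 517 CPM on day 4 to 124 CPM on day 6.

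The let-7 blockers were detected almost entirely in suspension, at low levels. Lin28a (ENSMUSG00000050966, mm10 chromosome 4, 134003330 to 134018841), the paralogue best known from pluripotent cells, had 59, 93 and 172 counts in suspension on days 4, 5 and 6 and 0 counts in each adherent library. The suspension levels were 1.43, 2.22 and 3.41 CPM. Every suspension library thus lay above every adherent one. Lin28a was called higher in suspension (adjusted p = 0.00164 by edgeR). Its suspension level was 32.8 times a chosen floor of 3 counts per adherent library, and 20.6, 29.3 and 48.7 times within days 4, 5 and 6. The exact Poisson 95% interval of 0 counts reaches 3.7, so these ratios are not strict lower bounds. Of all reads on the Lin28a locus in suspension 31.5% lay on the antisense strand, against 6.9% over all genes, and a gene on the opposite strand, Gm13061, overlaps its start. Gm13061 was not analysed here, and the part of such reads in the sense count was not tested.

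Lin28b (ENSMUSG00000063804, chromosome 10, 45376620 to 45486395), the paralogue that in mice marks fetal liver blood progenitors, had 164, 83 and 74 counts in suspension on days 4, 5 and 6. In the adherent libraries it had 0, 10 and 15 counts, where the exact Poisson 95% intervals were 0 to 3.7, 4.8 to 18.4 and 8.4 to 24.7. Those intervals cover counting error only, since reads and not molecules were counted. Its level was 3.97, 1.98 and 1.47 CPM in suspension against 0, 0.252 and 0.349 CPM in adherent libraries. The fractions did not overlap, and they lay closest on day 6. The log2 ratio was 3.61 ± 0.96 (adjusted p = 0.0182 by edgeR). It was 2.97 within day 5 and 2.07 within day 6, and on day 4 suspension was 57.4 times the floor of 3 counts. The call was lost with the collection day as a block (adjusted p = 0.0509 by edgeR), with suspension day 4 left out (log2 ratio 3.07, 0.0529) and with adherent day 5 left out (3.80, 0.0608). With adherent day 6 left out the log2 ratio was 4.30. Of the reads on the Lin28b locus in suspension 3.89% were antisense.

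The 3 IGF2BP paralogues did not move alike. Igf2bp1 (ENSMUSG00000013415, chromosome 11, 95957163 to 96005940), whose protein binds transcripts such as those of Myc and beta-actin, took 5.64, 3.31 and 1.23 CPM in the suspension libraries from day 4 to 6, against 35.99, 28.2 and 21.2 CPM in adherent cells. All adherent libraries were above all suspension libraries, and both fractions were lower on each later day. Its log2 ratio was -3.07 ± 0.54 (adjusted p = 0.00392 by edgeR), with -2.67, -3.09 and -4.11 within days 4, 5 and 6, and -3.70 with suspension day 4 left out. Antisense reads made up 22.6% of the reads on its locus in suspension and 20.1% in adherent cells.

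Igf2bp2 (ENSMUSG00000033581, chromosome 16, 22059009 to 22163299), the paralogue that stays on in many adult tissues, was at 18.8, 17.5 and 13.5 CPM in suspension against 55.1, 57.4 and 68.4 CPM in adherent cells. It was lower in suspension, with a log2 ratio of -1.86 ± 0.16 (adjusted p = 0.00054 by edgeR), with -1.55, -1.71 and -2.34 within days 4, 5 and 6. The fractions lay further apart on each later day, with suspension lower and adherent cells higher on each of them.

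Igf2bp3 (ENSMUSG00000029814, chromosome 6, 49085223 to 49214957), whose expression is mostly confined to embryos and tumours, had the opposite direction. It was at 79.4, 81.5 and 79.3 CPM in suspension against 44.5, 57.5 and 66.3 CPM in adherent cells. Suspension was level over the days and adherent cells approached it, so the ratio narrowed from day to day, at 0.84, 0.50 and 0.26 on the log2 scale. The log2 ratio over all libraries was 0.51 ± 0.15 (adjusted p = 0.0276 by edgeR). With suspension day 4, 5 or 6 or adherent day 5 left out, the ratio stayed about as large, at 0.48, 0.46, 0.50 and 0.53, and the adjusted p was 0.0619, 0.0827, 0.0556 and 0.074. Among genes that reached 10 CPM in 3 libraries it was 0.38 (0.063), and with library totals in place of TMM factors the log2 ratio was 0.29 (0.134). Igf2bp3 overlaps Malsu1 at its 3' end on the opposite strand, and the sense column was used to separate them.

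Hmga2 differed most among the genes that were lower in suspension. Hmga2 (ENSMUSG00000056758, chromosome 10, 120361275 to 120476469) supports self-renewal of fetal stem cells and growth of mesenchyme. It took 37.7, 24.4 and 5.96 CPM in the suspension libraries from day 4 to 6, against 517, 406 and 124 CPM in adherent cells. Its mean was 22.7 ± 15.9 CPM in suspension and 349 ± 203 CPM in adherent cells (SD, n = 3 each), or 15.4 times as high in adherent cells. The lowest adherent library was above the highest suspension library. The log2 ratio was -3.94 ± 0.83 (adjusted p = 0.00753 by edgeR), and within days 4, 5 and 6 it was -3.78, -4.05 and -4.38. With suspension day 4 left out it was -4.57 (adjusted p = 0.0149). The antisense gene 1700006J14Rik, which lies within Hmga2 on the opposite strand, had 52, 42 and 27 counts in suspension against 417, 430 and 162 in adherent libraries, and the part of reads from that strand in the Hmga2 level was not tested.

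Hmga1 (ENSMUSG00000046711, chromosome 17, 27556497 to 27563674), the paralogue found in most dividing cells, did not pass. It was at 24.9, 22.8 and 18.99 CPM in suspension against 43.0, 34.7 and 14.0 CPM in adherent cells, so the fractions overlapped and their order turned on day 6. The log2 ratio was -0.46 ± 0.39 (adjusted p = 0.343 by edgeR), with -0.79, -0.60 and 0.44 within days 4, 5 and 6. With adherent day 6 left out it was -0.80 with an adjusted p of 0.00889. The near-identical gene Hmga1b had between 0.396 and 2.26 CPM. Reads that map to several places are on a separate line of the tables and outside the gene counts, so the Hmga1 level is uncertain. AI413582 overlaps its 3' end on the opposite strand, with 2000 to 5312 counts a library.

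Arid3a (ENSMUSG00000019564, chromosome 10, 79927043 to 79955018) took 71.7, 92.7 and 89.4 CPM in the suspension libraries from day 4 to 6, against 18.2, 25.5 and 28.1 CPM in adherent cells. Its log2 ratio was 1.82 ± 0.20 (adjusted p = 0.000828 by edgeR), with 1.98, 1.86 and 1.67 within days 4, 5 and 6. The suspension libraries were 3.54 times as high in the mean. Its relative Arid3b, also a let-7 target, was at 2.03 ± 0.26 log2 (adjusted p = 0.0014 by edgeR) and was named after its value was seen.

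**Figure D3:**
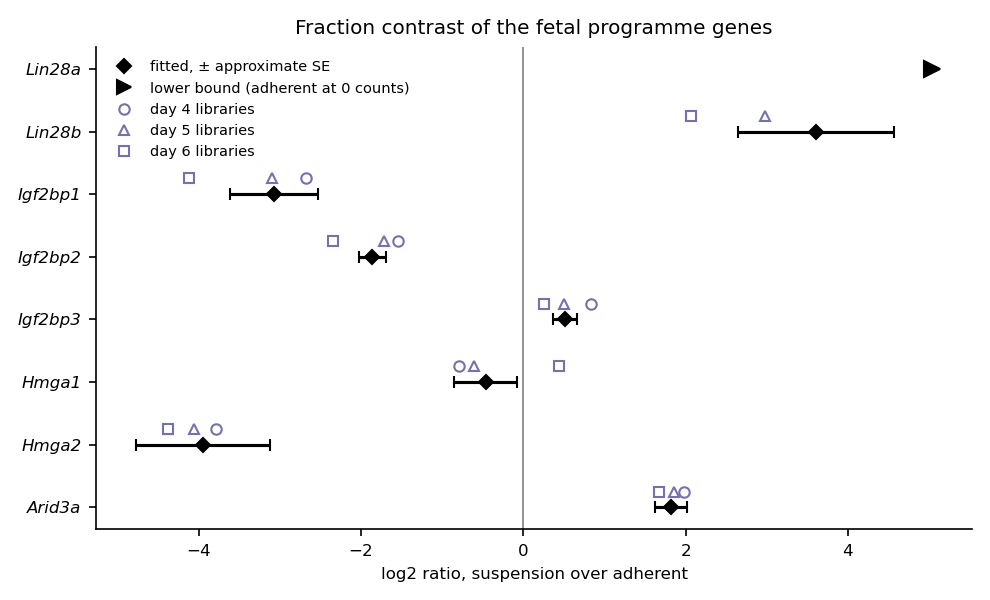
Log2 ratio of suspension over adherent for each gene. Black diamonds are the fitted ratios with approximate standard errors over 3 libraries per fraction, and open purple symbols are the ratios within each day. The black triangle, drawn as a lower bound, is the ratio of Lin28a in suspension to a floor of 3 counts. The ratio of Hmga1 within day 6, at 0.44, is on the other side of 0 from days 4 and 5. Lin28b has no symbol for day 4, where the adherent library had 0 counts.

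Markers of cell types moved with the same contrast. The adherent libraries held most counts of endothelial, fibroblast and mural cell markers. Summed endothelial markers, with all 7 called lower in suspension, took 3.35 to 5.88 CPM in suspension and 537 to 1395 CPM in adherent libraries. All 6 fibroblast markers were lower, with sums of 17.3 to 64.6 CPM in suspension and 1468 to 2286 CPM in adherent libraries. For pericytes and smooth muscle 4 of 5 were lower, with sums of 7.43 to 100.3 CPM in suspension and 471 to 2641 CPM in adherent libraries. Of 6 epithelial markers 3 were lower, with sums of 12.6 to 221 CPM in suspension and 262 to 1223 CPM in adherent libraries.

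The suspension libraries held most counts of blood cell markers. All 6 neutrophil markers were higher there, with sums of 25040 to 75440 CPM in suspension and 225 to 952 CPM in adherent libraries. Of 6 macrophage markers 5 were higher, with 3898 to 5150 CPM in suspension and 1143 to 2697 CPM in adherent libraries. All 5 tested erythroid markers were higher, with 38.2 to 219 CPM in suspension and 2.12 to 4.31 CPM in adherent libraries. Of 3 tested megakaryocyte markers 1 was higher, and their sum was 1224 to 1922 CPM in suspension and 738 to 1362 CPM in adherent libraries. Most of that sum was Pf4, at 1459 and 962 CPM in the mean, which was not called (adjusted p = 0.13 by edgeR). Gp9, the gene called, averaged 1.47 CPM in suspension and 0.0315 CPM in adherent libraries. Of 4 progenitor markers 2 were higher and 1 lower, and their sum was 42.0 to 52.9 CPM in suspension and 71.3 to 150.2 CPM in adherent libraries. Most of the adherent sum was Cd34, called lower, which averaged 7.86 CPM in suspension and 82.0 CPM in adherent libraries. Kit, not called, averaged 10.8 and 15.9 CPM in the same order. Myb and Flt3, called higher, averaged 29.8 and 0.771 CPM in suspension and 0.921 and 0.0477 CPM in adherent libraries. Of 6 proliferation markers 5 were higher, and they summed to between 858 and 868 CPM in suspension and between 351 and 603 CPM in adherent libraries. The part of this difference in cell make-up in the ratios of the 8 genes was not tested. Cdh5, which encodes the VE-cadherin used for the sort, averaged 0.223 ± 0.139 CPM in suspension and 149 ± 73.9 CPM in adherent libraries (SD, n = 3 each). The adherent libraries thus carried the sorted marker together with fibroblast, mural and blood cell transcripts.

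Over the days, Hmga2, Igf2bp1 and Hmga1 were lower on each later day in both fractions, which was so in 8.66% of tested genes. Hmga2 was 6.32 times as high on day 4 as on day 6 in suspension and 4.17 times in adherent cells, Igf2bp1 4.596 and 1.70 times, and Hmga1 1.31 and 3.07 times. The common slope per day was -1.17 ± 0.21 log2 for Hmga2, -0.69 ± 0.17 for Igf2bp1 and -0.48 ± 0.17 for Hmga1, while that of Arid3a was 0.24 ± 0.07. None of the 8 passed edgeR's test of the common slope (adjusted p = 0.128, 0.147, 0.206 and 0.184 for these 4 genes), where 0.0134% of all tested genes were called. At an unadjusted p under 0.05 there were 4 of the 8, as were 20.4% of all tested genes. DESeq2's Wald test called 2, Hmga2 (adjusted p = 9.96e-07) and Igf2bp1 (adjusted p = 0.00457), and 9.77% of all tested genes.

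Within the fractions the slopes gave 3 calls, 2 in adherent libraries and 1 in suspension. These counts were unstable, at 0 to 6 and 0 to 2 with 1 library left out. In such a fit the line of that fraction runs through its 2 remaining libraries. The gene's own spread then comes from the other fraction alone. In the adherent libraries Hmga1 fell by 0.80 ± 0.15 log2 per day (adjusted p = 0.0333 by edgeR) and Igf2bp3 rose by 0.29 ± 0.06 (adjusted p = 0.042), where 11.3% of all tested genes were called, 7.75% higher and 3.52% lower over the days. With any 1 suspension library left out the Hmga1 slope was -0.84 and its adjusted p 0.0683 to 0.0714. With adherent day 6 left out the slope was -0.31 (adjusted p = 0.271), and with adherent day 4 left out -1.31 (0.0248). The slope of Igf2bp3 was 0.25 with any 1 suspension library left out (adjusted p from 0.128 to 0.133), 0.21 and 0.37 with adherent day 4 or 6 left out (0.456 and 0.174) and 0.24 with library totals in place of TMM factors (0.0881). Markers of dividing cells summed to 868, 858 and 861 CPM in suspension and to 603, 427 and 351 CPM in adherent libraries from day 4 to 6, where 4 of 6 were called lower over the days. Summed macrophage markers were at 1143, 1244 and 2697 CPM in the adherent libraries, with 4 of 6 called higher. The part of either in the Hmga1 and Igf2bp3 slopes was not tested.

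In suspension Igf2bp1 fell by 1.07 ± 0.12 log2 per day (adjusted p = 0.047 by edgeR), where 0.496% of all tested genes were called, 0.0939% higher and 0.402% lower over the days. With suspension day 4 or 6 left out its slope was -1.47 and -0.77 (adjusted p = 0.163 and 0.839). Sums of markers of non-blood cells in suspension were also lower on each later day. Those of pericytes and smooth muscle summed to 100.3, 15.8 and 7.43 CPM, those of epithelium to 221, 32.2 and 12.6 CPM and those of fibroblasts to 64.6, 59.7 and 17.3 CPM, and their part in this slope was not tested. Hmga2 had a slope of -1.31 ± 0.29 log2 per day in suspension (adjusted p = 0.131) and of -1.03 ± 0.28 in adherent cells (adjusted p = 0.0727), which do not pass. Both passed in the unfiltered table (0.00584 in suspension and 0.007 in adherent cells). The suspension slope also passed with any 1 adherent library left out (0.0321 to 0.0333) and the adherent slope with adherent day 5 left out (0.0156). In these fits the adherent line runs through 2 libraries, so they hold no spread of the adherent libraries. The suspension slope was -2.08 and -0.62 with suspension day 4 or 6 left out, and the adherent slope -1.71 and -0.35 with adherent day 4 or 6 left out, none of them past the threshold (0.281, 0.999, 0.0724 and 0.63). The 2 LIN28 genes had slopes of opposite sign in suspension, 0.63 ± 0.23 for Lin28a and -0.72 ± 0.36 for Lin28b, neither past the threshold (adjusted p = 0.29 and 0.4 by edgeR).

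**Figure D4:**
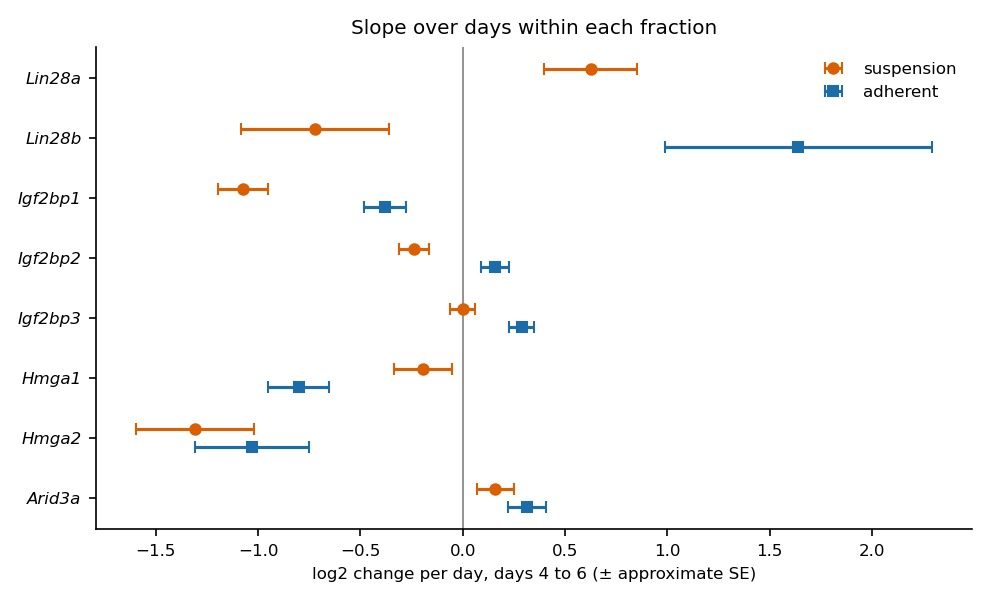
Fitted log2 change per day over days 4 to 6 within suspension (orange circles) and adherent libraries (blue squares). The approximate standard errors come from a joint fit to all 6 libraries. Hmga2 lies at -1.31 in suspension and -1.03 in adherent libraries, and Lin28a has no adherent slope because it had no counts there.

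None of the 7 genes with counts in both fractions passed the test of the difference between the slopes, suspension minus adherent, where 0.516% of all tested genes were called by edgeR, 0.0536% higher and 0.463% lower in suspension. At an unadjusted p under 0.05 there were 5 of the 7, as were 19.6% of all tested genes. These were Lin28b at -2.36 ± 0.74 log2 per day (adjusted p = 0.183), Igf2bp1 at -0.69 ± 0.16 (0.113), Igf2bp2 at -0.39 ± 0.10 (0.136), Igf2bp3 at -0.29 ± 0.08 (0.165) and Hmga1 at 0.61 ± 0.21 (0.204). DESeq2's Wald test called 1, Igf2bp1 (adjusted p = 0.0388), and 6.85% of all tested genes. These differences moved with single libraries. For Lin28b it was -1.19, -4.20 and -7.19 with adherent day 4, 5 or 6 left out (adjusted p = 0.522, 0.0366 and 0.112 by edgeR), and for Hmga1 1.11, 0.61 and 0.12 (0.0504, 0.0275 and 0.723). With suspension day 4 or 6 left out it was -1.05 and -0.35 for Igf2bp1 (0.275 and 0.783). In each of these fits the fraction that lost a library has no spread of its own, so the adjusted p rests on the other fraction. Hmga2, at -0.28 ± 0.39, had an adjusted p of 0.743, so no difference between its slopes was detectable at this spread.

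Genes that act on let-7 went both ways between the fractions. Of 13 genes of let-7 processing and turnover 4 were higher and 4 lower in suspension by the same edgeR test, with a median log2 ratio of -0.11. Tut4, the enzyme that LIN28A recruits to add uridines to the let-7 precursor, was at 19.4 ± 1.198 CPM in suspension and 53.9 ± 2.13 CPM in adherent cells (SD, n = 3), a log2 ratio of -1.47 ± 0.09 (adjusted p = 0.000348). Its relative Tut7 was at 0.61 ± 0.15 log2 (adjusted p = 0.0143), the Argonaute gene Ago2 at 0.39 ± 0.12 (0.0341) and Prkra, a partner of Dicer, at -0.43 ± 0.10 (0.00971). The other 4 called genes of this list were named after their values were seen. The processing enzyme genes Drosha and Dicer1 were at -0.61 ± 0.14 (0.0103) and 0.37 ± 0.10 (0.0167). The nuclease gene Dis3l2, which degrades uridylated let-7 precursors, was at 0.49 ± 0.13 (0.0189). Trim71, a let-7 target that is itself known from early embryos, was at -4.38 ± 0.27 (0.000342). Of the let-7 host transcripts only Huwe1, an X-linked gene whose introns hold members of the family, was tested, and it was not called (log2 ratio -0.21).

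Of 20 other listed let-7 targets 6 were higher and 8 lower in suspension, with a median of 0.02. The cyclin genes Ccnd1 and Ccnd2, at -3.66 ± 0.48 and -2.61 ± 0.35 log2, were the most abundant ones that were lower (adjusted p = 0.00142 and 0.00159 by edgeR). Cdc34 and Nras were higher by smaller ratios, at 0.51 ± 0.13 and 0.43 ± 0.09 (adjusted p = 0.0166 and 0.00661). Over all tested genes the median log2 ratio was -0.01 for 12275 genes with no seed match, 0.04 for 1239 with 1, 0.13 for 153 with 2 and -0.13 for 28 with 3 or more. The share of genes with a ratio above 0 was 49.3%, 52.4%, 60.1% and 42.9% in the same order. Both thus rose from 0 to 2 matches and were lowest in the 28 genes, which include Hmga2, Lin28b and Igf2bp1. A part of let-7 in these ratios was not tested, and genes are not independent replicates.

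Transcripts known to be bound by IGF2BP proteins and genes of the IGF axis were 3 higher and 5 lower of 10, with a median of -0.47. Igf1r, the receptor gene that is also a let-7 target, was at 29.4 ± 3.87 CPM in suspension and 71.9 ± 8.15 CPM in adherent cells (SD, n = 3; log2 ratio -1.29 ± 0.14, adjusted p = 0.00085 by edgeR), and Igf2r, which clears IGF2, at -0.64 ± 0.22 (0.0483). Actb and the adhesion receptor gene Cd44 were at 0.40 ± 0.14 (0.0456) and 1.45 ± 0.10 (0.00039). Igf2, the ligand gene, also named after its value was seen, was at -0.76 ± 0.49 and did not pass (0.222). Its level was low, at 0.213 ± 0.083 CPM in suspension and 0.366 ± 0.119 CPM in adherent cells (SD, n = 3), so this ratio rests on few counts.

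Other HMG-box and HMGN genes and the ARID relatives of Arid3a were 4 higher and 3 lower of 13 tested, with a median of 0.19. Hmgb2, a DNA-bending protein, averaged 371 ± 61.1 CPM in suspension and 103 ± 16.0 CPM in adherent cells, and Hmgn2, a nucleosome-binding protein, 124 ± 14.9 CPM in suspension and 43.0 ± 6.11 CPM in adherent cells (SD, n = 3; adjusted p = 0.000603 and 0.000629 by edgeR). Hmgn1, a close relative of Hmgn2, had the opposite direction, at -1.20 ± 0.20 log2 (0.00307), and so did Arid5b at -1.41 ± 0.28 (0.00596). Of 7 cell cycle genes linked to Hmga2, 3 were higher and 3 lower (median -0.22). Cdkn2a, which encodes the cell cycle inhibitors p16 and p19 that Hmga2 is known to keep low in fetal neural stem cells, was at 5.46 ± 1.62 CPM in suspension and 148 ± 36.8 CPM in adherent cells (SD, n = 3), so it was lower in suspension together with Hmga2 (log2 ratio -4.76 ± 0.31, adjusted p = 0.000352 by edgeR). Junb, the activator of Cdkn2a through which Hmga2 is known to act, was at -1.83 ± 0.36 log2 (0.00565). Ccna2 and Rb1 were at 1.16 ± 0.23 (0.00654) and 1.79 ± 0.14 (0.000462).

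Regulators of blood stage were 3 higher and 3 lower of 12, with a median of 0.12. Myb, needed for definitive blood progenitors, was at 29.8 ± 4.90 CPM in suspension and 0.921 ± 0.472 CPM in adherent cells (SD, n = 3; adjusted p = 0.000453 by edgeR). Bcl11a, a repressor of fetal globin, was at 1.57 ± 0.33 log2 (0.00778). Sox17, which marks fetal stem cells of the blood and also endothelium, was at 0.00660 ± 0.0114 CPM in suspension and 21.4 ± 8.25 CPM in adherent cells (adjusted p = 0.000342), and Mllt3 was at -1.63 ± 0.11 log2 (0.000377).

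The genes of most like pattern were found by the root mean square difference between log2 profiles over the 6 libraries, each centred on its own mean. Lin28a lay nearest to Chil1 and Lcn2 (0.29 and 0.38 log2), and Lcn2 encodes a granule protein of neutrophils. Lin28a had no counts in the adherent libraries. Its log2 values there were set by the prior count, a constant added before the log. The size of its gap between the fractions, and so its nearest genes, depend on that constant. Lcn2 took 1201, 1619 and 3584 CPM in the suspension libraries from day 4 to 6, against 46.2, 57.0 and 74.3 CPM in adherent ones, and the summed neutrophil markers in suspension were at 25040, 31790 and 75440 CPM. Lin28b lay nearest to Itgb7, an integrin of white blood cells, and Dmkn (0.41 and 0.42). The prior count also set the Lin28b value in the adherent library of day 4, which had no count of it. The Lin28b profile was higher on day 4 than on day 5 in suspension, and that of Itgb7 was not, at 22.7 and 26.5 CPM.

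Igf2bp1 lay nearest to Sdc1, a cell surface proteoglycan, and Hmgn3 (0.23 and 0.24), and Hmga2 to Fst, a secreted activin inhibitor, and Zfp462 (0.23 and 0.27). Fst was at 29.4, 17.7 and 4.91 CPM in suspension and 370, 230.1 and 66.4 CPM in adherent cells on days 4, 5 and 6. Igf2bp2 lay nearest to Pir and Lgalsl (0.07 and 0.08), Igf2bp3 to Ccdc22 and Skiv2l (0.04 each), Hmga1 to Nmt2 and the mitotic gene Gtse1 (0.14 and 0.16), and Arid3a to Atg7 and Elmo1 (0.08 and 0.09), which act in autophagy and in the engulfment of cells.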

How the data were processed

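Libraries were made with a 10x 3' v3 kit. The submitters' processing notes name bcl2fastq, Cell Ranger, STARsolo and mm10, with no version or annotation. The deposited tables hold raw read counts per gene of each whole library (sense, antisense and either strand), with no cell axis and no collapsing of molecular identifiers. Sense counts summed to 36451255 to 57784974 per library, where 3 counts are 0.0594 to 0.0756 CPM. Multimapping reads (13.9% to 22.6%) and reads on no gene (16.7% to 24.2%) stand on summary lines that were left out. GENCODE M21 (GRCm38) gave symbols and coordinates for 30934 identifiers. Among 28 repeated symbols, the identifier with most counts kept the name.

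Of 22019 genes with any count, 14912 passed filterByExpr in edgeR 4.0.16 under R 4.3.3. TMM factors were 0.874 to 1.12. Quasi-likelihood tests compared the fractions (4 residual degrees of freedom), the common slope per day (3) and the difference of slopes (2), with Benjamini-Hochberg adjustment over all tested genes. Slope tests within a fraction were added after seeing the data. The standard error is the absolute log2 value over the square root of F. Scripts were tested on simulated data.

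The labels tie 1 library of each fraction to each day. For these pairs the deviations from fraction means had correlations over genes of 0.318, 0.095 and 0.253, against -0.285 to 0.022 for pairs of unlike days, and the block by day was run as an alternative. The others were reads on either strand, size factors or the Wald test of DESeq2 1.42.0, unscaled totals, no filter, a minimum of 10 CPM in 3 libraries, thinning to the smallest total, and leaving out each library. With 1 library left out, the spread behind slope differences and slopes within a fraction comes from the other fraction alone.

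The 8 genes and the lists were chosen with earlier results of these data known. All 8 are named. Of each list, the 2 called genes with the highest mean CPM in each direction are named, and for each of the 8 the 2 genes of most like pattern with a mean of at least 10 CPM (prior count 2) and no Gm or Rik number. The let-7 host transcripts Mirlet7bhg and Mir99ahg were not analysed here.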

Additional observations from a re-analysis of the deposited data

How the results depend on the processing

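Across alternatives no ratio of the 8 genes between the fractions changed direction. Of the 8, 7 were called, beside 56.8% of all tested genes. A minimum of 10 CPM in 3 libraries, which tests 6 of them, gave 4 calls (1 higher), beside 5106 of 8685 tested genes, or 58.8%. Leaving out 1 library gave 5 to 8 called, with 2 to 4 higher, beside 42.8% to 56.6% of all tested genes. With the day as a block 6 passed, beside 56.4% of all tested genes. The call of Lin28b was lost there, and no other call of the 8 changed. With library totals in place of TMM factors the median log2 ratio of all genes was -0.24, and 34.3% of calls were higher, against 47.8%. For the common slope DESeq2 called 2 of the 8 genes and 1457 of all genes, no filter 66 and library totals 0, against 2; leaving out 1 library gave 0 to 13. For the slope difference DESeq2 called 1 of the 8 and 1021 of all genes and no filter 1 and 1006, against 77; library totals gave 13 and thinned counts 39. Leaving out 1 library gave 0 to 2 of the 8 and 0 to 859 of all genes, the highest with adherent day 5 left out. The cause was not tested. Slopes near 0 changed sign. The common slope of Lin28b, -0.04, was 0.28 by DESeq2, and leaving out 1 library put it between -0.57 and 0.86, that of Igf2bp2 between -0.17 and 0.076, and the slope difference of Hmga2 between -1.01 and 0.45 and of Arid3a between -0.37 and 0.10. In suspension the slope of Igf2bp3 was 0.013 on either strand, 0.014 with thinned counts, 0.00096 without a filter and -0.081 to 0.040 with 1 library left out, and that of Arid3a -0.093 to 0.37. Within adherent libraries 2 of the 8 slopes were called, 5 without a filter (2646 of all genes, against 1681) and 0 to 6 with 1 library left out (288 to 2902). Within suspension 1 was called, 2 without a filter (809 of all genes, against 74) and 0 to 2 with 1 library left out (0 to 544), and library totals gave 150 and thinned counts 49 of all genes. Thinning to the smallest library changed no call of the 8 between the fractions.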
